A study of Mus musculus with 12 samples.

Results

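The genes described here are the potassium channel genes of the mouse, taken by name: every gene whose symbol in the platform annotation begins with Kcn and a further letter, each read from its brightest row on the array. The rule gave 91 genes of the 30743 genes with a row, namely 90 genes of channel pores and their auxiliary subunits and Kcnq1ot1, a long noncoding RNA that shares only the letters. Of the 91, 52 had a mean log2 value over the 12 arrays above the mean of the array medians (6.11) and are described, and 39 did not. That is 57.1% of the members, against 61.9% of all genes with a row. The rule left out 3 opposite-strand transcripts (Kcnd3os, Kcnmb4os1 and Kcnmb4os2). The described members closest to the limit were Kcnq3, Kcnc1 and Kcnmb4, with means of 6.17, 6.16 and 6.16, and the nearest below it were Kcnip1, Kcna6 and Kcnj9, with 6.08, 6.05 and 6.04.

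The study set 3 kinds of lymphatic endothelial cells (LEC) of mouse ear skin against one another and against blood endothelial cells (BEC), with 3 arrays for each of the 4 groups. All cells came from C57BL6 mice aged 5 weeks, which the labels also call adult, and all groups carried the Prox1-GFP reporter transgene Tg(Prox1-EGFP)KY221Gsat, in which regulatory sequence of the lymphatic regulator Prox1 drives a fluorescent protein. After enrichment on PECAM1 beads, the LEC were sorted as positive for PDPN and for Prox1-GFP and were split by LYVE1: low or negative for collecting vessels (col LEC), intermediate for pre-collecting vessels (pre-col LEC) and high for capillaries (cap LEC). BEC were PECAM1 positive and negative for PDPN, Prox1-GFP and LYVE1. The subtypes are therefore classes of LYVE1 staining, and Lyve1, Pdpn, Prox1 and Pecam1 served to choose the cells. Whether an array holds 1 mouse or a pool is not stated, so p-values measure the spread between these samples, which may be partly technical. Values are log2 RMA signals, and 1 unit is a 2-fold difference.

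Potassium channels let potassium leave the cell and so pull the membrane potential towards negative values, which in endothelium increases the drive for calcium entry. Inward rectifiers and 2-pore channels set the resting potential, voltage-gated channels open on depolarization, and calcium-activated channels couple a rise in calcium to hyperpolarization that can spread through gap junctions to the muscle of the vessel wall. In collecting lymphatics, contraction of the muscle coat pumps lymph, while capillaries have no muscle coat.

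The labels held against their markers, some of which had served to choose the cells. All 5 lymphatic markers (Prox1, Lyve1, Pdpn, Flt4 and Reln) were called higher in LEC than in BEC, with a median log2 difference of 5.21. Of these, only Flt4 and Reln had no part in the sort. All 6 blood endothelial markers were called lower in LEC (median -3.56), and none of them was used in the sort. All 6 pan-endothelial markers, Pecam1 of the enrichment among them, lay above the array median on every array. Of these 6, 3 were called lower in LEC than in BEC and 0 higher (median -0.27). Mural markers (11 genes of pericytes and smooth muscle, such as Rgs5 and Acta2) had array means of 6.85 to 6.92 in col LEC, 6.91 to 8.01 in pre-col LEC and 6.60 to 7.12 in cap LEC, against 8.69 to 8.85 in BEC. Fibroblast markers averaged 6.50 to 7.43 in col LEC, 6.72 to 8.21 in pre-col LEC and 6.49 to 6.84 in cap LEC, against 6.97 to 7.08 in BEC, and pre-col LEC replicate 1 was the highest LEC array for both lists. In sorted bulk samples like these, fewer cells of a type and less RNA per cell cannot be told apart. The 95th percentile of the 5222 negative control rows lay between 8.92 and 9.34 on the 12 arrays. Among the 52 described members, 49 stayed below that percentile on every array. Kcnn3 passed it on all 9 LEC arrays and on no BEC array, Kcnk5 on col LEC replicates 2 and 3, and Kcnj8 on BEC replicate 2, so most of these channel genes gave signals within the range of the control rows. Where 1 or both groups lie there, a log2 difference is one of deposited signals, and no linear fold is given.

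Kcnn3, the pore subunit of a small-conductance calcium-activated channel, was the member with the widest spread between groups, and it followed the order of the LYVE1 sort. Its values (row TC0300000767.mm.1) were 10.01, 10.10 and 10.34 in col LEC, 10.78, 10.81 and 10.63 in pre-col LEC, 11.07, 11.20 and 11.14 in cap LEC, against 7.94, 8.08 and 7.86 in BEC. No col LEC array reached any pre-col LEC array, no pre-col LEC array reached any cap LEC array, and every BEC array lay more than 1 unit below every LEC array. Group means were 10.15 ± 0.17 in col LEC, 10.74 ± 0.098 in pre-col LEC and 11.14 ± 0.067 in cap LEC, against 7.96 ± 0.112 in BEC (SD, n = 3 each). Kcnn3 was lower in col LEC than in cap LEC by a log2 difference of -0.99 ± 0.10 (limma moderated SE, adjusted p = 0.000302, 95% interval -1.20 to -0.77), which is 1.98-fold. It was also lower in col LEC than in pre-col LEC, with a difference of -0.59 ± 0.10 (limma, adjusted p = 0.0358). The difference of pre-col LEC from cap LEC, -0.40 ± 0.10, missed the threshold (limma, adjusted p = 0.477, 95% interval -0.62 to -0.18), although the arrays did not overlap. In that comparison no gene at all was called.

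Against BEC, the mean of the LEC groups was higher for Kcnn3 by 2.72 ± 0.08 (limma, adjusted p = 3.64e-10). The call of col LEC against cap LEC was kept in all 12 fits that left out 1 array. The call of col LEC against pre-col LEC is weaker, because 8 of those 12 fits ended it: those without col LEC replicate 1 or 2, without any one pre-col LEC array and without any one cap LEC array, with adjusted p up to 0.154.

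**Figure D1:**
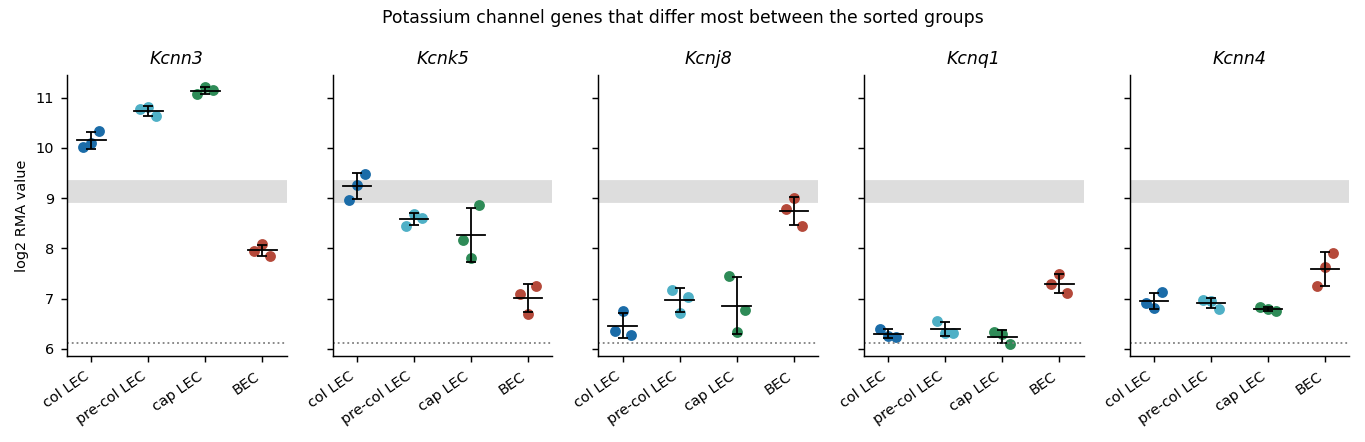
Log2 RMA signal of the 5 described members whose group means spanned at least 0.5 log2 units. Each point is 1 array, bars are group means with SD (n = 3), and groups run from col LEC to pre-col LEC, cap LEC and BEC. The dotted line is the mean array median (6.11), and the grey band is the range over arrays of the 95th percentile of the negative controls (8.92 to 9.34). Kcnn3 stepped upward from col LEC (mean 10.15) to cap LEC (11.14), Kcnk5 ran the other way among the LEC (9.24 in col LEC, 8.27 in cap LEC), and Kcnj8, Kcnq1 and Kcnn4 were highest in BEC.

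Kcnk5, an acid-sensitive 2-pore channel that carries a background potassium current, showed the opposite order among the LEC. Its values (row TC1400001528.mm.1) were 8.97, 9.25 and 9.48 in col LEC, 8.45, 8.68 and 8.61 in pre-col LEC, 8.16, 7.80 and 8.86 in cap LEC, against 7.08, 6.70 and 7.25 in BEC. All col LEC arrays lay above all pre-col and cap LEC arrays, pre-col and cap LEC overlapped, and all BEC arrays were the lowest. Group means were 9.24 ± 0.257 in col LEC, 8.58 ± 0.118 in pre-col LEC and 8.27 ± 0.538 in cap LEC, against 7.01 ± 0.283 in BEC (SD, n = 3 each). Kcnk5 was called higher in LEC than in BEC, by 1.69 ± 0.19 (limma, adjusted p = 3.43e-05). Between col LEC and cap LEC the difference of 0.96 ± 0.23 did not pass (limma, adjusted p = 0.0736, 95% interval 0.45 to 1.48), nor did the 0.65 ± 0.23 between col LEC and pre-col LEC (limma, adjusted p = 0.617). The first of these moved with single arrays. Without cap LEC replicate 3, at 8.86 the highest of its group, the difference was 1.26 and was called (limma, adjusted p = 0.0114). In the other 11 fits without 1 array it was not called, and it was smallest, at 0.73, without cap LEC replicate 2 (limma, adjusted p = 0.245).

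The start regions of both genes are printed because their group means spanned the widest ranges among the LEC, in opposite orders, although Kcnk5 was not called between LEC subtypes. Each window runs from 250 bases before the RefSeq transcript start to 50 bases after it (build GRCm38.p6), 5′ to 3′ on the gene's own strand. Kcnn3 lies at chr3:89519914-89520213 on the plus strand, and Kcnk5 at chr14:20181733-20182032 on the minus strand. Capitals mark matches to any of 5 motifs searched on both strands: a forkhead motif (GTAAACA), an ETS motif (CCGGAAGT), a TATA box (TATAAA), an AP-1 motif (TGANTCA) and a GC box (GGGCGG).
Kcnn3: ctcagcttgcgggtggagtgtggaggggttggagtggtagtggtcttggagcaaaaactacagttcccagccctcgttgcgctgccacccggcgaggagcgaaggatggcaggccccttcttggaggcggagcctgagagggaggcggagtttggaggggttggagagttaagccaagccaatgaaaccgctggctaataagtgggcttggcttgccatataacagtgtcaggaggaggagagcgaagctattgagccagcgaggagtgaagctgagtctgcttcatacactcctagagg
Kcnk5: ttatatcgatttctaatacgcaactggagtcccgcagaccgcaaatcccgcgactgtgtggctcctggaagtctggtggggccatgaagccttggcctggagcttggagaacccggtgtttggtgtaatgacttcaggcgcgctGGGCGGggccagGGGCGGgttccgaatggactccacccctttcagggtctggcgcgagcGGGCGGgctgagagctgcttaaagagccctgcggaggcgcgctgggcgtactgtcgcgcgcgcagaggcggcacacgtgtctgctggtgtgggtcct
The Kcnn3 window held none of the 5 motifs, with 57.7% G and C bases and 11 CpG dinucleotides. The Kcnk5 window held 3 GC boxes, which begin 106, 94 and 47 bases before the start, with 63.7% G and C bases and 26 CpG dinucleotides. Of the 32851 RefSeq windows of this length, 35.7% hold a GC box, 13.6% a TATA box, 7.8% the AP-1 motif, 3.9% the ETS motif and 3.6% the forkhead motif. Among the 95 windows of 70 Kcn members in that table, 47.4% hold a GC box, and the median share of G and C bases is 58.0%, against 52.7% over all windows. A match describes the letters of a window, not a bound site.

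Kcnn3 was the 1 member called between LEC subtypes. Of the 53 members tested, 52 described and Kcna6, 0 were called higher and 1 lower in col LEC than in cap LEC, which is 1.89% of them, where 1.64% of all 19675 genes tested were called, 0.651% higher and 0.986% lower. Between col LEC and pre-col LEC, 0 were higher and 1 lower, where 0.300% of all genes were called, 0.117% higher and 0.183% lower. Between pre-col LEC and cap LEC, 0 of 53 were called by limma, as were 0 of all genes (0%), while 1 member and 1257 genes in all had an unadjusted p under 0.05. The median log2 difference over the 52 was 0.06 in col LEC against cap LEC (0.03 over all genes), 0.07 in pre-col LEC against cap LEC (0.00 over all genes) and 0.00 in col LEC against pre-col LEC (0.02 over all genes).

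Leaving aside Kcnn3 and Kcnk5, the means of the 3 LEC groups spanned 0.01 to 0.51 among the other 50 described members, with a median of 0.10, and 48 of the 50 spanned less than 0.25. The 2 wider ones were Kcnj8 and Kcnk7. Kcnk7, a 2-pore family member for which no current of its own is established, spanned 0.35: its values were 7.32, 7.66 and 8.13 in col LEC, 7.74, 7.82 and 7.52 in pre-col LEC, 7.33, 7.37 and 7.37 in cap LEC, against 7.69, 7.61 and 7.91 in BEC. The col LEC arrays of Kcnk7 covered the range of all other arrays, so col LEC overlapped every other group. All pre-col LEC and BEC arrays lay above all cap LEC arrays. The difference of pre-col LEC from cap LEC, 0.34 ± 0.17, was not called (limma, adjusted p = 0.794). Half-widths of the 95% intervals between LEC subtypes had a median of 0.20 log2 units over the described members. The interval of col LEC minus cap LEC lay within 1 unit either way for 50 of the 52, as did that of col LEC minus pre-col LEC, and that of pre-col LEC minus cap LEC did for all 52.

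**Figure D2:**
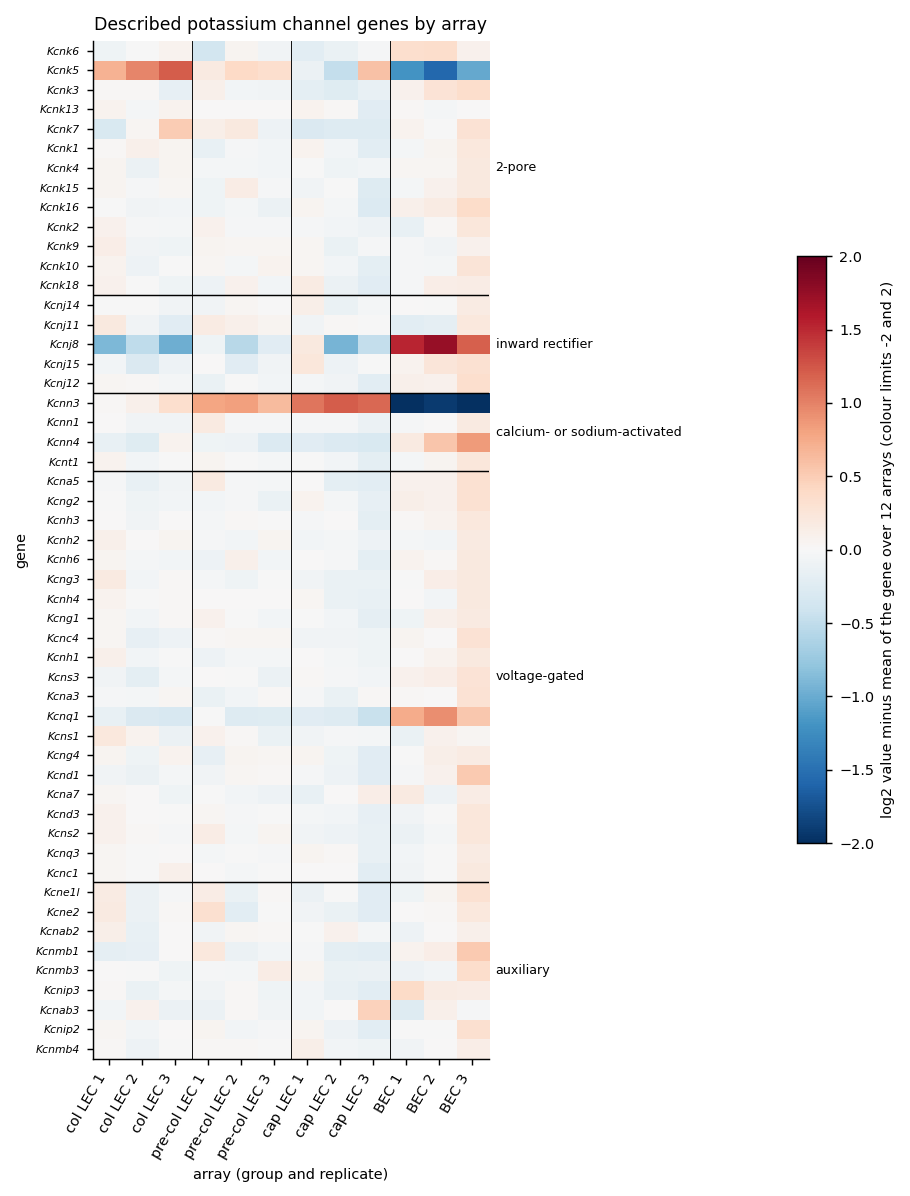
Deviation of each array from the gene's mean over 12 arrays, in log2 units, for the 52 described potassium channel genes grouped by class, with arrays in columns from col LEC to BEC. Kcnn3, Kcnk5, Kcnj8, Kcnq1 and Kcnn4 have group means at least 0.5 apart, and the other 47 do not.

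Between all LEC and BEC, 15 of the 53 members tested were called, 2 higher and 13 lower in LEC. That is 28.3%, where 22.6% of all genes were called, 2370 genes of 19675 higher and 10.6% lower, so the share called in either direction is near that of all genes. By direction it was not: 24.53% of the members tested were lower in LEC, and 3.77% were higher, against 12.05% of all genes. Kcnn3 and Kcnk5 were the members higher in LEC. The lower ones were 3 of 5 described inward rectifiers (Kcnj8, Kcnj12 and Kcnj15), 3 of 13 2-pore channels (Kcnk3, Kcnk6 and Kcnk16), 3 of 21 voltage-gated subunits (Kcnq1, Kcng2 and Kcns3), 1 of 4 calcium- or sodium-activated channels (Kcnn4), 2 of 9 auxiliary subunits (Kcnip3 and Kcnmb1), and Kcna6, which is not among the described. Of these, Kcnj8, Kcnq1 and Kcnn4 differed by more than 0.5 log2 units. The median over the 52 described was -0.11, against -0.02 over all genes tested, and 46 of 52 (88.5%) lay below 0, against 52.5% of all genes. The shift was smaller under other normalizations. With cyclic loess between arrays the median was -0.064 (-0.001 over all genes), and 38 of 52 lay below 0. With quantile normalization between arrays the median was -0.081 (-0.004 over all genes), and 42 of 52 lay below 0. One array carried much of that shift: BEC replicate 3 was the highest BEC array for 43 of the 52 (82.7%, against 45.5% of all genes tested). Without it 34 of 52 lay below 0, with a median of -0.04, against 0.01 over all 19467 genes then tested. In that fit 8 members were called, 2 higher and 6 lower, so the lower calls fell from 13 to 6. Over all genes, fits without 1 array called 3287 to 4348, against 4453 with all arrays. Shares of all genes by direction are not given for the fit without BEC replicate 3, so the excess of lower calls is stated for all arrays only.

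**Figure D3:**
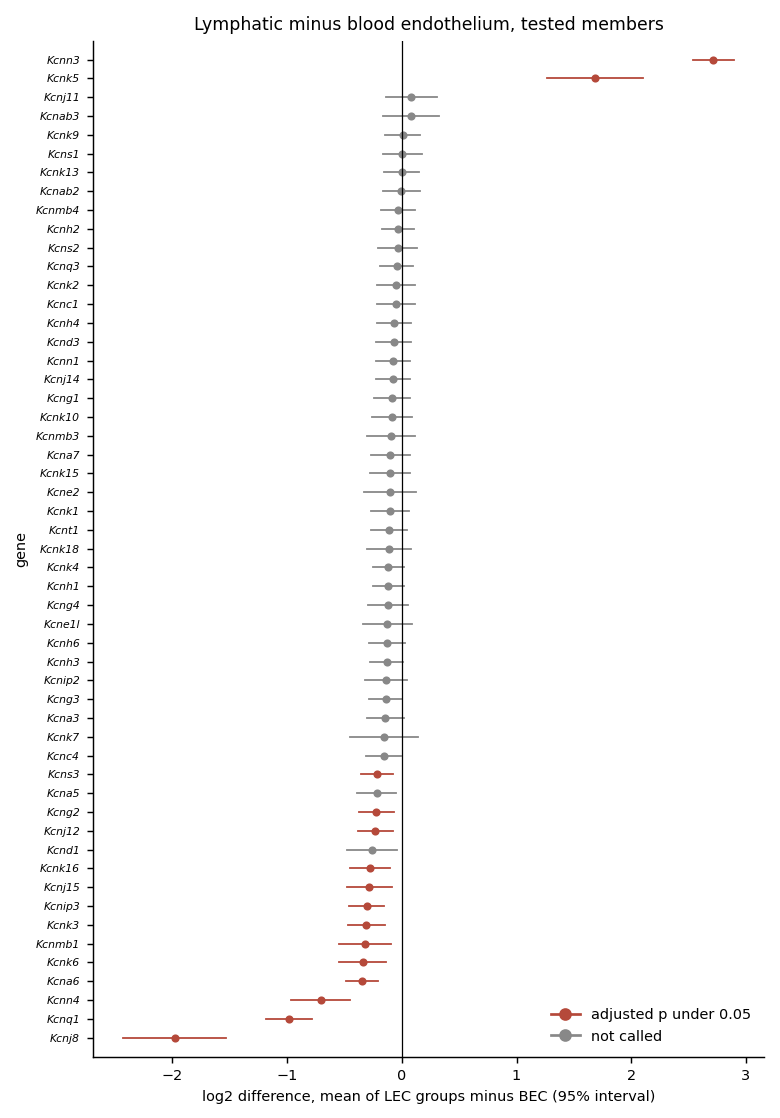
Log2 difference between LEC (mean of their 3 groups) and BEC for the 53 potassium channel genes tested, ordered by size, with 95% intervals from limma and called genes in red. Kcnn3 at 2.72 and Kcnk5 at 1.69 lie to the right of 0, Kcnj8 at -1.98, Kcnq1 at -0.98 and Kcnn4 at -0.71 lie to the left, and the remaining members lie within 0.5 of 0.

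Kcnj8, the pore subunit of the ATP-sensitive potassium (KATP) channel of vessel walls, was the described member with the largest deficit in LEC. Its values (row TC0600003378.mm.1) were 6.36, 6.75 and 6.29 in col LEC, 7.18, 6.71 and 7.04 in pre-col LEC, 7.46, 6.33 and 6.78 in cap LEC, against 8.78, 9.01 and 8.45 in BEC. All BEC arrays lay above all LEC arrays, and the LEC groups overlapped one another. The mean of the LEC groups was lower, with a difference of -1.98 ± 0.21 (limma, adjusted p = 1.52e-05), with group means of 6.46 in col LEC, 6.98 in pre-col LEC, 6.85 in cap LEC and 8.75 in BEC. Abcc9 encodes the sulfonylurea receptor that assembles with this pore, and in the RefSeq gene order it is the neighbour of Kcnj8 on chromosome 6. Abcc9 gave 6.48, 6.26 and 6.50 in col LEC, 6.83, 6.37 and 7.05 in pre-col LEC, 7.35, 6.57 and 6.76 in cap LEC, against 10.34, 9.79 and 9.40 in BEC. It too was lower in LEC on every array, with a difference of -3.16 ± 0.21 (limma, adjusted p = 2.36e-07).

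Both KATP subunits are abundant in pericytes and vascular smooth muscle as well as in some endothelium, and mural markers moved with them. Of the 11 mural markers, 10 were called lower in LEC than in BEC, with a median log2 difference of -1.53. Rgs5, a pericyte marker, gave 6.95, 8.15 and 6.90 in col LEC, 10.21, 8.91 and 7.93 in pre-col LEC, 8.75, 6.67 and 7.04 in cap LEC, against 11.82, 11.40 and 11.12 in BEC. The part of mural RNA in the difference of Kcnj8 and Abcc9 was not tested. Among the LEC arrays, pre-col LEC replicate 1 had the highest mural mean (8.01), and without it the Kcnj8 difference from BEC was -2.01 (limma, adjusted p = 2.93e-05). That fit kept every BEC array, and the mural means were highest in BEC, so it is no test of mural RNA in the difference.

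**Figure D4:**
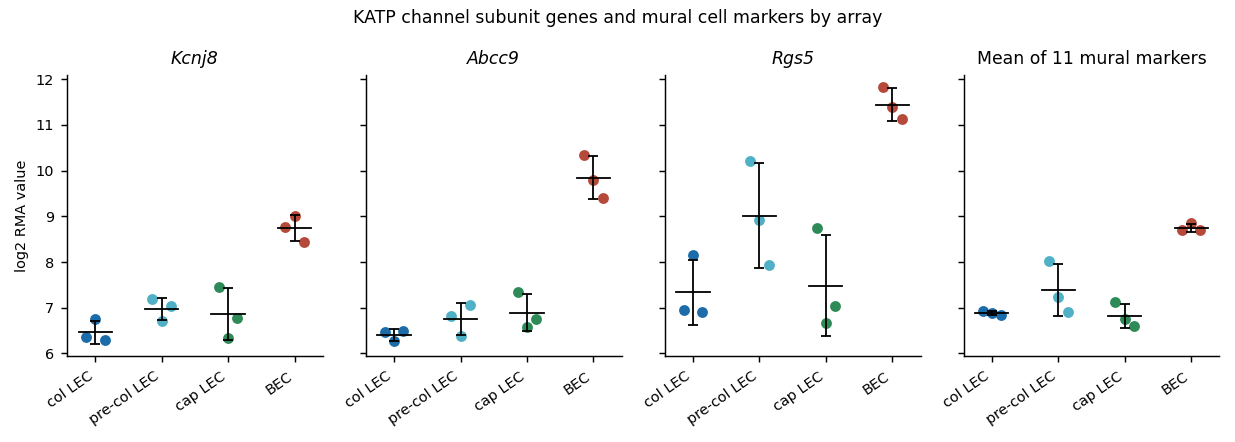
Log2 RMA signal (vertical axis) of Kcnj8, Abcc9, the pericyte marker Rgs5 and the mean of 11 mural markers, by group. Each point is 1 array, and bars are group means with SD (n = 3). The BEC arrays are the highest in every panel, with Kcnj8 at 8.45 to 9.01 and mural means of 8.69 to 8.85, and pre-col LEC replicate 1 is the highest LEC array for Rgs5 (10.21) and for the mural mean (8.01).

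The start windows of this neighbouring pair are shown because both genes were low in LEC and high in BEC. Kcnj8 lies at chr6:142571565-142571864 and Abcc9 at chr6:142702225-142702524, both on the minus strand of GRCm38.p6 (RefSeq), printed as above with the same motifs in capitals.
Kcnj8: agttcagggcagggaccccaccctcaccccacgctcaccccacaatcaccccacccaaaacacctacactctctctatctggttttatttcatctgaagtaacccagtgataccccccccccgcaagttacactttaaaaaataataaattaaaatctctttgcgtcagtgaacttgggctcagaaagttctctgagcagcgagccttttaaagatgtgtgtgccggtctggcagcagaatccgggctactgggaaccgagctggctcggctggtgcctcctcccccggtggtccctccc
Abcc9: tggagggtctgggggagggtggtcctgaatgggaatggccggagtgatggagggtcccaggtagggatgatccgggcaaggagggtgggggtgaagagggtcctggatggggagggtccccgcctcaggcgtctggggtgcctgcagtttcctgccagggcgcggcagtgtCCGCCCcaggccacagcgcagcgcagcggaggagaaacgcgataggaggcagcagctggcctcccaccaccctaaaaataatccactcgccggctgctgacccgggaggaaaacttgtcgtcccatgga
The Kcnj8 window held none of the 5 motifs. The Abcc9 window held 1 GC box, on the other strand, which is read there as CCGCCC. The shares of G and C bases were 53.3% for Kcnj8 and 65.7% for Abcc9.

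The remaining inward rectifiers differed by less. The pancreatic-type KATP pair, the pore Kcnj11 and its receptor Abcc8, was not called in any comparison: Kcnj11 had means of 7.33 in col LEC, 7.47 in pre-col LEC, 7.35 in cap LEC and 7.30 in BEC, and Abcc8 had 7.22 in col LEC, 7.21 in pre-col LEC, 7.17 in cap LEC and 7.30 in BEC. Kcnj14, a further inward rectifier and the highest of its class, gave 8.13, 8.14 and 8.07 in col LEC, 8.07, 8.18 and 8.13 in pre-col LEC, 8.26, 8.01 and 8.11 in cap LEC, against 8.15, 8.13 and 8.31 in BEC, and its groups overlapped. Kcnj12, a strong inward rectifier of heart and muscle, gave 6.61, 6.60 and 6.53 in col LEC, 6.44, 6.56 and 6.52 in pre-col LEC, 6.53, 6.50 and 6.36 in cap LEC, against 6.67, 6.66 and 6.91 in BEC. Its BEC arrays lay just above all LEC arrays, a difference of -0.23 ± 0.07 (limma, adjusted p = 0.0346). Kcnj15 gave 6.60, 6.36 and 6.55 in col LEC, 6.66, 6.43 and 6.58 in pre-col LEC, 6.87, 6.55 and 6.64 in cap LEC, against 6.73, 6.90 and 6.96 in BEC, with overlap between cap LEC and BEC and a difference of -0.28 ± 0.09 (limma, adjusted p = 0.0399).

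Kcnj2, the strong inward rectifier best known from arterial and capillary endothelium, lay below the array median, with means of 5.25 in col LEC, 4.85 in pre-col LEC, 4.83 in cap LEC and 5.55 in BEC. It was among the 38 members left out of the main test by the filter on low signal. When every gene was tested without that filter, 4 of the 38 were called, all lower in LEC than in BEC, where 14.6% of all 30743 genes were called and 7.42% were called lower. They were Kcnj2 (-0.57 ± 0.09, adjusted p = 0.000667), Kcne4 (-1.24 ± 0.19, adjusted p = 0.000606), Kcnc2 (-0.60 ± 0.07, adjusted p = 4.6e-05) and Kcnab1 (-0.40 ± 0.07, adjusted p = 0.00266), all by limma. Kcne4 and Kcnc2 were chosen for mention after their values were seen. None of the 38 was called by limma between LEC subtypes, where 2 in col LEC against cap LEC, 0 in pre-col LEC against cap LEC and 1 in col LEC against pre-col LEC had an unadjusted p under 0.05. For Kcnj2 the col LEC arrays (5.18 to 5.31) lay above the pre-col LEC arrays (4.62 to 5.03) and the cap LEC arrays (4.82 to 4.84), a difference of 0.43 ± 0.11 between col LEC and cap LEC that was not called (limma, adjusted p = 0.125).

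Among voltage-gated subunits, Kcnq1 stood out. It encodes the pore of a slowly opening channel that pairs with KCNE auxiliary subunits in heart and epithelia. Its values (row TC0700002090.mm.1) were 6.41, 6.27 and 6.24 in col LEC, 6.55, 6.31 and 6.31 in pre-col LEC, 6.34, 6.30 and 6.11 in cap LEC, against 7.30, 7.48 and 7.11 in BEC. Every BEC array was above every LEC array and the LEC groups overlapped, a difference of -0.98 ± 0.09 (limma, adjusted p = 6.28e-06), lower in LEC. Keratinocyte markers, an epithelial list, averaged 6.07 to 6.31 in col LEC, 6.05 to 6.21 in pre-col LEC and 5.97 to 6.14 in cap LEC, against 6.34 to 6.58 in BEC. In each group 4 of the 8 markers lay above the array median, with Krtdap among those below it. Of the 4 tested, 3 were called lower in LEC. The part of keratinocyte RNA in the Kcnq1 result was not tested. Of the auxiliary subunits that can join Kcnq1, Kcne4, an inhibitory one, gave 4.60, 4.31 and 4.63 in col LEC, 4.94, 4.55 and 4.33 in pre-col LEC, 4.64, 4.44 and 4.45 in cap LEC, against 6.41, 5.39 and 5.56 in BEC. BEC replicate 1 lay well above the other two BEC arrays, and all BEC arrays lay above all LEC arrays. Kcne3, another partner, had means of 5.66 in col LEC, 5.70 in pre-col LEC, 5.53 in cap LEC and 5.89 in BEC. Apart from Kcne4, no Kcne gene was called between LEC and BEC. In the main test Kcne1l differed by -0.13 (limma, adjusted p = 0.38) and Kcne2 by -0.10 (limma, adjusted p = 0.507). Without the filter on low signal, Kcne3 differed by -0.26 (limma, adjusted p = 0.0903) and Kcne1 by -0.07 (limma, adjusted p = 0.622). Kcnq5 had means of 5.29 in col LEC, 5.29 in pre-col LEC, 5.32 in cap LEC and 5.39 in BEC, all below the array median.

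The highest voltage-gated member was Kcna5, a delayed rectifier of vascular and cardiac muscle. Its values were 8.21, 8.09 and 8.17 in col LEC, 8.41, 8.22 and 8.20 in pre-col LEC, 8.25, 8.04 and 8.03 in cap LEC, against 8.32, 8.33 and 8.55 in BEC, and the difference of LEC from BEC, -0.22 ± 0.08, was not called (limma, adjusted p = 0.068). Kcng2 and Kcns3 encode silent subunits that form channels only together with others. Kcng2 gave 7.49, 7.41 and 7.44 in col LEC, 7.45, 7.48 and 7.38 in pre-col LEC, 7.57, 7.46 and 7.34 in cap LEC, against 7.62, 7.59 and 7.80 in BEC, a difference of -0.22 ± 0.07 (limma, adjusted p = 0.0369). Kcns3 gave 6.58, 6.45 and 6.62 in col LEC, 6.66, 6.63 and 6.53 in pre-col LEC, 6.67, 6.62 and 6.59 in cap LEC, against 6.73, 6.79 and 6.92 in BEC, a difference of -0.22 ± 0.06 (limma, adjusted p = 0.0322). In both, the lowest BEC array lay just above the highest LEC array.

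Kcnn4, the intermediate-conductance calcium-activated channel that works beside Kcnn3 in endothelial hyperpolarization, ran against Kcnn3. Its values (row TC0700000381.mm.1) were 6.92, 6.82 and 7.13 in col LEC, 6.97, 6.96 and 6.80 in pre-col LEC, 6.84, 6.79 and 6.76 in cap LEC, against 7.25, 7.62 and 7.92 in BEC. All BEC arrays were above all LEC arrays, and the mean of the LEC groups was lower, with a difference of -0.71 ± 0.12 (limma, adjusted p = 0.000789). Kcnn4 is also known from mast cells, T cells and macrophages. The mast cell markers averaged 5.67 to 5.80 in col LEC, 5.60 to 5.78 in pre-col LEC and 5.73 to 5.76 in cap LEC, against 6.26 to 6.33 in BEC. Of these 4 markers, Cpa3 and Mcpt4 lay below the array median in every group, while Kit and Tpsb2 lay above it. Only 2 were tested, and Kit alone was called lower in LEC. Macrophage markers averaged 6.09 to 6.43 over all LEC arrays, against 6.18 to 6.31 in BEC, and T cell markers 5.91 to 6.07, against 5.93 to 6.10 in BEC. The part of such cells in the Kcnn4 result was not tested. Kcnma1, the large-conductance channel typical of smooth muscle, lay below the array median with means of 4.98 in col LEC, 4.95 in pre-col LEC, 4.91 in cap LEC and 5.01 in BEC, while its smooth-muscle auxiliary subunit Kcnmb1 gave 6.65, 6.66 and 6.83 in col LEC, 7.05, 6.72 and 6.78 in pre-col LEC, 6.80, 6.63 and 6.61 in cap LEC, against 6.89, 6.96 and 7.35 in BEC. Pre-col LEC and BEC overlapped for Kcnmb1, with pre-col LEC replicate 1, the LEC array highest in mural markers, also the highest LEC array here. The difference from BEC was -0.32 ± 0.11 (limma, adjusted p = 0.0459).

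In the 2-pore family 13 of 14 members were described, all but Kcnk12. Only Kcnk5 among them passed the 95th percentile of the negative controls on any array. Kcnk6, the highest of them, gave 8.27, 8.34 and 8.42 in col LEC, 7.99, 8.42 and 8.29 in pre-col LEC, 8.14, 8.23 and 8.34 in cap LEC, against 8.69, 8.71 and 8.43 in BEC. Its BEC arrays lay above all LEC arrays, the lowest only just, a difference of -0.34 ± 0.10 (limma, adjusted p = 0.0216). Kcnk3, an acid-sensitive background channel, gave 7.73, 7.72 and 7.55 in col LEC, 7.81, 7.66 and 7.64 in pre-col LEC, 7.51, 7.47 and 7.56 in cap LEC, against 7.79, 7.98 and 8.05 in BEC, with overlap between pre-col LEC and BEC and a difference of -0.31 ± 0.07 (limma, adjusted p = 0.00927). Kcnk16, the neighbour of Kcnk5 on chromosome 14, gave 7.26, 7.20 and 7.21 in col LEC, 7.19, 7.23 and 7.16 in pre-col LEC, 7.32, 7.24 and 6.99 in cap LEC, against 7.37, 7.43 and 7.64 in BEC. It was lower in LEC, with a difference of -0.28 ± 0.08 (limma, adjusted p = 0.025), so the neighbours were called in opposite directions. Kcnk2, a channel opened by membrane stretch, had means of 6.82 in col LEC, 6.82 in pre-col LEC, 6.75 in cap LEC and 6.85 in BEC. The lowest pre-col LEC array (6.781) lay just above the highest cap LEC array (6.779), and the other pairs of groups overlapped. Kcnk2 was not called in any comparison.

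Of the 17 auxiliary subunits, 9 were described. Kcne1l, the highest, gave 7.67, 7.39 and 7.48 in col LEC, 7.66, 7.37 and 7.53 in pre-col LEC, 7.39, 7.50 and 7.28 in cap LEC, against 7.43, 7.56 and 7.82 in BEC, and its groups overlapped. Kcnip3, a calcium-binding partner of voltage-gated channels, gave 6.61, 6.46 and 6.54 in col LEC, 6.52, 6.61 and 6.50 in pre-col LEC, 6.53, 6.44 and 6.38 in cap LEC, against 6.97, 6.76 and 6.73 in BEC. All BEC arrays were above all LEC arrays, and the difference was -0.31 ± 0.07 (limma, adjusted p = 0.00676). Kcnab1, which binds voltage-gated pores in the cytoplasm, had means of 5.65 in col LEC, 5.69 in pre-col LEC, 5.57 in cap LEC and 6.04 in BEC.

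The described members called at less than 0.5 log2 units between LEC and BEC rest on few arrays. There were 9 of them, with differences from -0.34 to -0.22. Without BEC replicate 3, 7 of the 9 were no longer called (Kcnk3, Kcnmb1, Kcnj12, Kcns3, Kcnk16, Kcnj15 and Kcng2), with differences of -0.25 to -0.15 and adjusted p of 0.0555 to 0.264 by limma. Kcnk6 lost its call without BEC replicate 1 (adjusted p = 0.082) and without BEC replicate 2 (adjusted p = 0.0932). Kcnn3, Kcnk5, Kcnj8, Kcnq1, Kcnn4, Kcnip3 and Kcna6 kept their calls against BEC in each of the 12 fits without 1 array and under the other 9 settings tried, except that Kcna6 was not tested under the stricter filter on low signal.

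Other genes of potassium and calcium handling were also called between LEC and BEC. In a list of 50 such genes, 32 were tested, and 5 were called higher (15.62%, against 12.05% of all genes) and 8 lower (25%, against 10.6% of all genes) in LEC than in BEC, with a median of -0.13 against -0.02 over all genes tested. The 4 with the smallest p were Fxyd6, Piezo2, Abcc9 and Itpr2. Fxyd6, a small regulator of the sodium-potassium pump, averaged 11.51 in col LEC, 11.38 in pre-col LEC, 11.39 in cap LEC and 8.67 in BEC, a difference of 2.76 ± 0.07 (limma, adjusted p = 1.44e-10). Piezo2, a pressure-gated cation channel that admits calcium, averaged 8.23 in col LEC, 9.17 in pre-col LEC, 9.74 in cap LEC and 6.24 in BEC, a difference of 2.80 ± 0.14 (limma, adjusted p = 2.68e-08). Itpr2, a calcium release channel of the endoplasmic reticulum, averaged 8.31 in col LEC, 8.12 in pre-col LEC, 8.19 in cap LEC and 9.86 in BEC and was lower in LEC, with a difference of -1.65 ± 0.11 (limma, adjusted p = 2.48e-07).

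Between LEC subtypes Piezo2 was the list's one called gene: it was lower in col LEC than in cap LEC, with a difference of -1.51 ± 0.18 (limma, adjusted p = 0.000796), the direction in which Kcnn3 was called. None of the 32 was called by limma between pre-col LEC and cap LEC (1 with an unadjusted p under 0.05) or between col LEC and pre-col LEC (5 with an unadjusted p under 0.05). By role, 2 of 5 tested pump genes were called higher and 2 lower in LEC than in BEC, where 22.6% of all genes were called in either direction. Of 6 tested cation-chloride cotransporters 3 were lower, of 10 calcium entry and release genes 3 were higher and 2 lower, and of 11 partner subunits and other channels Abcc9 alone was called.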

How the data were processed

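Whole-transcript arrays were made from 500 pg of amplified total RNA per sample, per the labels' protocols, in 12 samples of 4 groups. The deposited values are log2 RMA signals, per the submitters' processing notes. RMA corrects background, equalises the distributions of the arrays and combines the probes of each transcript cluster into 1 value, which compresses weak signals. For its software, version and annotation, the sources used here name none. Depth does not apply to arrays: the 3 arrays per group limit the precision, with a median SD of 0.141 within groups.

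Gene names came from the platform annotation, with 825 symbols updated through RefSeq (GRCm38.p6), and 1534 rows naming several genes were not used. Each gene is its brightest row, and no Kcn gene had more than 1. The 19675 genes above the array median on at least 3 of 12 arrays were tested. Group means were fitted over all 12 arrays with limma 3.58.1 (lmFit and eBayes, R 4.3.3), two-sided, with Benjamini-Hochberg adjustment over all genes tested and calls at an adjusted p under 0.05. Errors beside differences are moderated standard errors. The fit was tested on simulated data. Values on every array are given for described members called in any comparison and for the highest member of each class, group means for a fixed set of endothelial channels, and from the list of other potassium handling genes up to 4 called genes by smallest p. The members and lists were chosen with earlier results of these data known. Alternatives were other filters, normalizations, fits and the omission of each array. Replicate numbers were not used as a block in the fit, and promoter windows and their motifs were read from a RefSeq table of the same build.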

Additional observations from a re-analysis of the deposited data

How the results depend on the processing

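Results under the alternatives were followed for members called in any comparison and for a fixed set of others. None changed direction where the main fit or the alternative called it. In all, 1520 kept their side of the threshold, 66 lost a call and 6 gained one. A change of sign between 2 fits without a call counts among the 1520. The number of potassium channel genes called between col LEC and cap LEC was 1, and it was 2 with array weights, where Kcnk5 was added (1.25, limma, adjusted p = 0.00525). Without 1 array it lay between 1 and 2. Between col LEC and pre-col LEC the 1 call became 0 with only the arrays of the groups compared (Kcnn3, limma, adjusted p = 0.183), and lay between 0 and 1 without 1 array. Between pre-col LEC and cap LEC it was 0 under all 21 alternatives. Between LEC and BEC the 15 calls became 8 to 16 without 1 array and 11 to 18 otherwise. The number of members described was 52 to 53. With the replicate number as a block, 2 members were called in col LEC against cap LEC (Kcnk5, limma, adjusted p = 0.0306), 0 in col LEC against pre-col LEC (Kcnn3, limma, adjusted p = 0.0528) and 11 in LEC against BEC. Across all genes, array weights called 792 genes against 322 in col LEC against cap LEC, 28 against 0 in pre-col LEC against cap LEC and 153 against 59 in col LEC against pre-col LEC, where only the groups compared gave 5, and cyclic loess gave 10 in pre-col LEC against cap LEC. Without 1 array the all-gene counts were 178 to 351 in col LEC against cap LEC and 22 to 63 in col LEC against pre-col LEC. The causes were not tested. The replicate numbers share no stated batch. Same-number deviations correlated at -0.09 to 0.21 (median 0.09), and 7 of 18 pairs passed 0.1. Pairs of different number correlated at -0.14 to 0.18 (median -0.03), and 2 of 36 passed 0.1. For 9 of 12 arrays the mean correlation was highest with the arrays of their own number. Whether same-number arrays share a source was not tested.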

Other observations

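A few members were set apart by 1 array. Kcna1, a voltage-gated channel of nerve axons, was 7.09 in cap LEC replicate 2 and between 5.62 and 5.83 on the other 11 arrays. Kcnrg, a regulator of voltage-gated channel assembly, reached 6.59 in col LEC replicate 3.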
